A study of Homo sapiens with 4 samples.

Results

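Oxidative phosphorylation genes, the nuclear genes of the respiratory complexes, were followed in THP1 cells in which MLL-AF9 was knocked down. The genes were taken by name from the deposited intensity table, as NDUFA, NDUFB, NDUFC, NDUFS and NDUFV genes for complex I, SDHA to SDHD for complex II, UQCR genes and CYC1 for complex III, COX4 to COX8 genes for complex IV and ATP5 genes for complex V. Of 87 gene names matched, 85 had a probe with a weight above 0 on all 4 arrays, of 17938 genes measured in this way. They comprised 37 genes of complex I, 4 of complex II, 9 of complex III, 17 of complex IV and 18 of complex V, counted by name. COX4NB, ATP5S, ATP5SL and ATP5L2 carry such names without encoding an established subunit; 81 genes are left without them. Each gene was represented by its brightest probe, so that members and probes were chosen by measured values, the weight and the intensity, although not by the difference between treatments.

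The respiratory chain passes electrons from NADH (complex I) and succinate (complex II) through ubiquinone to complex III, and on through cytochrome c to complex IV, which reduces oxygen. Complexes I, III and IV pump protons across the inner mitochondrial membrane, and complex V, the ATP synthase, uses the gradient to make ATP. Most subunits are encoded in the nucleus and imported, whereas a core set is encoded by mitochondrial DNA.

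THP1 is an acute monocytic leukemia line that carries the MLL-AF9 fusion. Cells received siRNA-A or siRNA-B against the fusion, or one of the non-targeting siRNAs, called control siRNA-1 and control siRNA-2, and did so on days 0, 3 and 6 and were harvested on day 8, with serum lowered from 10% to 0.5% on day 6 in all treatments. The labels number the fusion siRNAs 3 and 4, and number 3 is called siRNA-A here and number 4 siRNA-B, a match that the sources used here do not state, so the letters may be exchanged. Each array carried pooled RNA of 5 experiments, which left 2 knockdown and 2 control arrays. Within a group each array had a different siRNA, so no siRNA was replicated across arrays. A p-value measures only the spread between these pools, in which differences between siRNAs and between arrays cannot be told apart. All 4 arrays lay on 1 slide, each treatment at its own position, so treatment and position cannot be told apart.

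Markers of the myeloid lineage were present. All 8 myeloid and monocytic markers with a probe were well above background on every array, AZU1 at log2 intensities between 16.25 and 16.41, whereas the epithelial markers EPCAM and CDH1 were above background on no array. All 3 T cell markers were also above background, close to the lower end of the scale (CD3E at 5.70 to 5.82). No probe is specific to the fusion. The MLLT3 (AF9) probe at chr9:20346480-20346539 (hg19, as all probe positions here) read 6.82 with siRNA-A, 6.87 with siRNA-B, 7.59 with the first control and 7.61 with the second. The brightest MLL probe, at chr11:118348856-118348915, read 10.55 and 10.64 in the knockdown arrays and 10.95 and 11.08 in the controls. In both probes the groups did not overlap, nor did they in a second MLLT3 probe at chr9:20345191-20345250 (-0.63). The other MLL probes gave -0.027, 0.048 and -0.085 with overlapping groups. They lie further along the plus strand, at chr11:118395871-118395930, chr11:118362577-118362636 and chr11:118361998-118362491. Which of these positions the fusion transcript retains was not tested.

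On the deposited intensities, 2 of the 85 genes were lower after knockdown at an unadjusted p under 0.005 in limma, where 0.702% of all genes were, and 0 were higher, where 0.63% were. At an unadjusted p under 0.05 there were 8 in either direction, where 8% of all genes were, and 0 had an adjusted p under 0.05 in limma (1, NDUFA4, when dim probes were left out). The 2 genes were NDUFA4, which was named as a complex I subunit and is now assigned to complex IV, and ATP5G2, one of a group of genes for subunit c of the ATP synthase rotor. Both calls in this comparison depended on how the pixels of a spot were summarised.

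The NDUFA4 probe (chr7:10973185-10973244) read 15.66 with siRNA-A, 15.66 with siRNA-B, 16.38 with control siRNA-1 and 16.37 with control siRNA-2. The difference was -0.72 (standard error 0.11, adjusted p = 0.0753 in limma). ATP5G2 (chr12:54059077-54059136) read 15.73 and 15.69 in the knockdown arrays and 16.39 and 16.36 in the controls, a difference of -0.67 (standard error 0.11, adjusted p = 0.106 in limma). In both genes the groups did not overlap, and each siRNA array lay at a similar level.

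The deposited intensity is the median pixel of a spot, and that value was almost never found around log2 16. Between 15.9 and 16.1 there were 6 spots with siRNA-A, 7 with siRNA-B and 3 and 4 with the controls, whereas the mean pixel of the same spots lay there in 71, 74, 68 and 58 cases. A second sparse range lay between 16.9 and 17.1, with 13, 7, 11 and 5 spots against 41, 38, 46 and 44. NDUFA4 and ATP5G2 were the only 2 of the 85 genes with both knockdown arrays on one side of a sparse range and both controls on the other. Of all genes 10 had this pattern, of which 5 were called with the median pixel and 1 with the mean pixel.

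With the mean pixel, an alternative chosen after seeing the data, NDUFA4 read 15.96 and 15.74 in the knockdown arrays and 16.15 and 16.23 in the controls. The groups still did not overlap, and the difference was -0.34 (adjusted p = 0.502 in limma). ATP5G2 read 15.98 and 16.004 against 16.13 and 16.13, a difference of -0.14 (adjusted p = 0.797 in limma). Neither gene was called when both knockdown arrays were pooled, and 0 of the 85 genes were called in limma in either direction, where 0.786% of all genes were called lower and 0.747% higher; 9 had an unadjusted p under 0.05, where 8.25% of all genes had. With each siRNA on its own the mean pixel called more of all genes, and limma's fit had 12.8 prior degrees of freedom, against 2.3 with the median pixel. With siRNA-A 2 members were called lower, where 2.51% of all genes were, NDUFA3 and NDUFA12 (an accessory subunit of complex I, chosen after its values were seen). With siRNA-B 3 were called lower, where 1.93% of all genes were, NDUFA4 among them at -0.45, and 1 higher, where 2.01% were, SDHD. ATP5G2 was called with neither. After quantile normalization of the mean pixel the siRNA-A calls of NDUFA3 and NDUFA12 were lost (-0.35 and -0.39). So were the siRNA-B calls of NDUFA4 and SDHD (-0.39 and 0.46). What produces the sparse ranges was not tested.

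**Figure D1:**
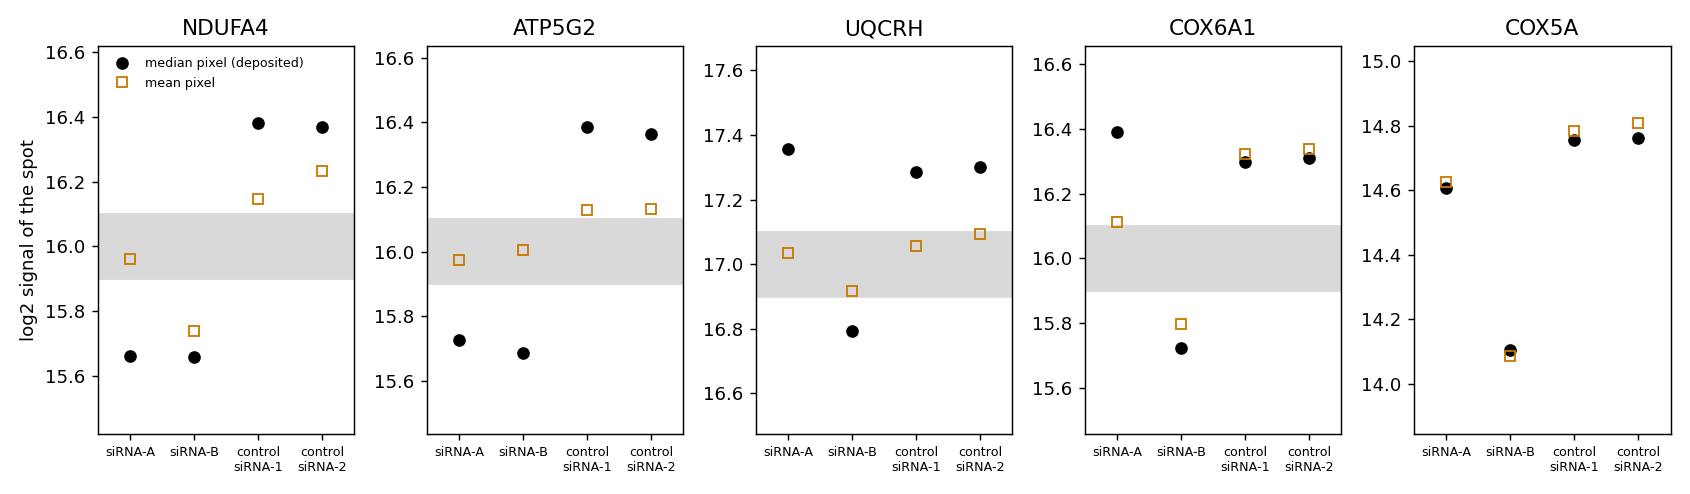
Log2 signal of 5 genes on each array (x axis), as the deposited median pixel (filled circles) and the mean pixel of the same spot (open squares), with the sparse ranges of the median pixel from 15.9 to 16.1 and 16.9 to 17.1 shaded. NDUFA4 and ATP5G2 lie on opposite sides of a shaded range by the median pixel (differences -0.72 and -0.67) and nearer together by the mean pixel (-0.34 and -0.14), while COX5A is alike by both.

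Genes for subunit c encode the same mature protein with different import sequences, and the probes for ATP5G2 and ATP5G3 overlap in sequence. The probe sequences are shown because a probe can read a related transcript. In capitals are the bases at which ATP5G2 and ATP5G3 differ, 12 of 41 overlapping bases, when both are laid side by side without gaps; ATP5G1 is in lower case throughout.
ATP5G1: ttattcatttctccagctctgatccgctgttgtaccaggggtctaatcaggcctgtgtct
ATP5G2: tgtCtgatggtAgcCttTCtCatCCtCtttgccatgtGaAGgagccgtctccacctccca
ATP5G3: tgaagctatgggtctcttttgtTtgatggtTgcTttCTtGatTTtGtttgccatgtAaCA
ATP5G3 (chr2:176043014-176043073) read 17.25 with siRNA-A, 17.32 with siRNA-B, 17.40 with control siRNA-1 and 17.75 with control siRNA-2, a difference of -0.29, or -0.20 with the mean pixel. ATP5G1 (chr17:46970798-46971772) read 13.27, 13.47, 13.38 and 13.48 in the same order. Its groups overlapped, and its difference was -0.062.

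Most genes of the complexes were slightly dimmer after knockdown before normalization. Of the 85 genes 73 (69 of the 81 without the 4 set apart above) were below the control mean, as were 56.2% of all genes, and the median log2 fold change was -0.11 against -0.021 over all genes. Both knockdown arrays lay below both controls in 36 genes, a pattern found in 21.2% of all genes, and above them in 4 genes, a pattern found in 15% of all genes. Quantile normalization brought the median to -0.029 and the number lower to 53, and called 2 genes, the same pair, where 0.596% of all genes were called lower. With it both knockdown arrays lay below both controls in 26 genes (19.6% of all genes) and above in 12 (21.5%). In pooled RNA, fewer cells that express a gene and less of its RNA per cell cannot be told apart.

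The shift belonged largely to the siRNA-A array. Against the controls the median of the 85 genes was -0.19 with siRNA-A and -0.023 with siRNA-B, and 75 genes were lower with siRNA-A and 49 with siRNA-B. Over all genes the medians were -0.053 and 0.012. After quantile normalization the medians of the 85 genes were -0.065 and 0.0017, with 54 and 42 genes lower. Both comparisons share the control arrays. With separate controls, siRNA-A minus control siRNA-1 had a median of -0.15 and siRNA-B minus control siRNA-2 one of -0.071, while siRNA-A minus control siRNA-2 had -0.23 and siRNA-B minus control siRNA-1 0.00083. The controls themselves differed by a median of -0.066 in these genes (control siRNA-1 minus control siRNA-2) and of -0.068 over all genes. NDUFA4 and ATP5G2, whose groups lie across a sparse range, were at -0.71 and -0.65 with siRNA-A and -0.72 and -0.69 with siRNA-B. Before normalization the calls that follow were these genes with siRNA-A, and these and COX5A (-0.65) with siRNA-B. With the mean pixel NDUFA4 was at -0.23 with siRNA-A and -0.45 with siRNA-B. At an unadjusted p under 0.005 in limma 2 members were called lower with siRNA-A, where 0.424% of all genes were, and 3 with siRNA-B, where 0.569% were, while 0 differed between the siRNAs, where 0.714% of all genes did. Between the siRNAs 10 members had an unadjusted p under 0.05, where 9.3% of all genes had. After quantile normalization 2 members were called lower with siRNA-A (0.541% of all genes) and 4 with siRNA-B (0.836%), and 2, COX5A and COX6A1, differed between the siRNAs (1.15%).

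**Figure D2:**
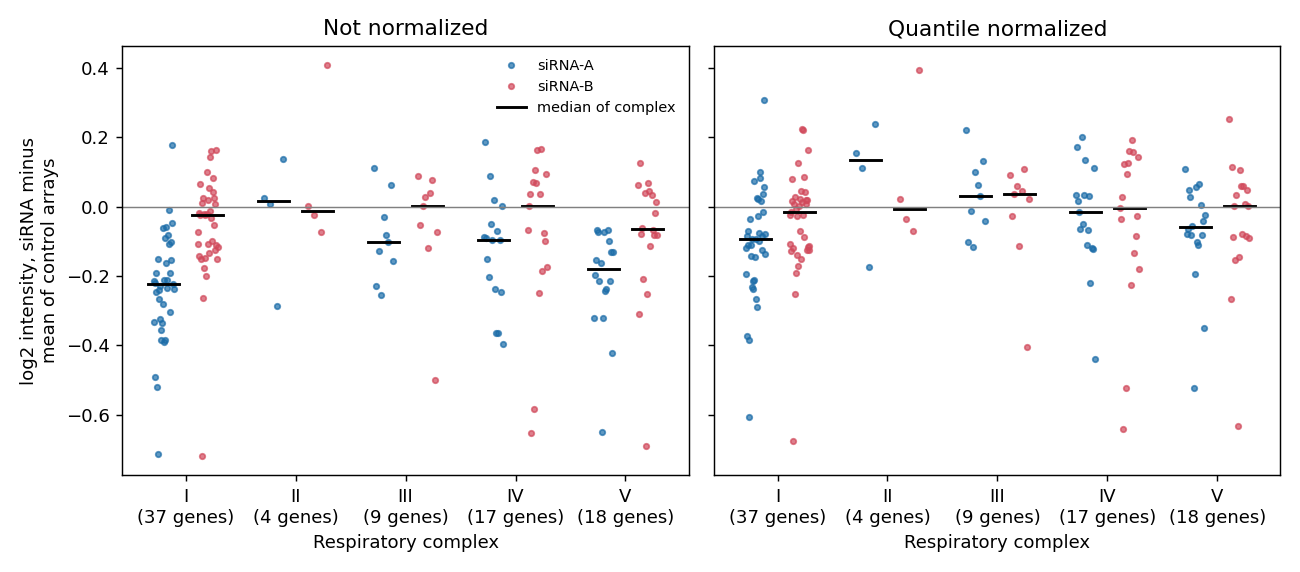
Difference in log2 intensity from the mean of the control arrays (y axis) for each gene (points) of complexes I to V (x axis), with siRNA-A and siRNA-B separately, not normalized on the left and quantile normalized on the right; bars are medians. Complex I lies lowest with siRNA-A (median -0.22, and -0.093 after normalization), and the medians with siRNA-B lie between -0.064 and 0.0011 before normalization.

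Complex I, the NADH dehydrogenase, had 33 of 37 genes lower, 19 of them with both knockdown arrays below both controls (21.2% of all genes), or 14 after quantile normalization (19.6%). Its median was -0.22 with siRNA-A and -0.025 with siRNA-B, and -0.093 and -0.014 after quantile normalization, when 29 genes were lower. NDUFA3, an accessory subunit (chr19:54609251-54609310), read 14.34 with siRNA-A, 14.71 with siRNA-B, 14.85 with control siRNA-1 and 14.88 with control siRNA-2. Its difference of -0.34 was mostly that of siRNA-A (-0.52, against -0.15 with siRNA-B) and was not called on the deposited intensities. NDUFV1, which carries the FMN and the NADH site (chr11:67379945-67380004), read 14.43 and 14.42 in the knockdown arrays and 14.25 and 14.26 in the controls. The groups of NDUFV1 did not overlap, and the difference of 0.17 (0.24 normalized) was not called. NDUFB9, an accessory subunit, read 16.28, 16.49, 16.29 and 16.39 in the order siRNA-A, siRNA-B, control siRNA-1 and control siRNA-2, and its groups overlapped.

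Complex II, succinate dehydrogenase, which also belongs to the citric acid cycle, had 2 of 4 genes lower, with medians of 0.017 with siRNA-A and -0.011 with siRNA-B, and 0.13 and -0.0056 after normalization, when 1 gene was lower. SDHD, a membrane anchor (chr11:111965866-111965925), read 12.07 with siRNA-A, 12.34 with siRNA-B, 11.995 with control siRNA-1 and 11.88 with control siRNA-2. Both knockdown arrays were above both controls, by 0.27 on average, which was not called on the deposited intensities. Other SDHD probes gave 0.025 and 0.088. SDHC, the other anchor, read 13.51 and 13.72 against 13.77 and 13.83, a difference of -0.18 that was not called. SDHA, the flavoprotein, read 14.59 and 14.56 against 14.47 and 14.65, and SDHB, the iron-sulfur subunit, 12.74 and 12.71 against 12.70 and 12.77. The groups of SDHA and SDHB overlapped.

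Complex III had 8 of 9 genes lower, with medians of -0.10 with siRNA-A and 0.0011 with siRNA-B, and 0.031 and 0.036 after normalization, when 5 genes were lower. UQCRH, the hinge protein (chr1:46782387-46782446), read 17.36 with siRNA-A, 16.79 with siRNA-B, 17.29 with control siRNA-1 and 17.30 with control siRNA-2. The siRNA-B array alone stood below, on the far side of a sparse range. With the mean pixel the values were 17.04, 16.92, 17.06 and 17.09, and the second UQCRH probe gave -0.078 with siRNA-A and 0.0076 with siRNA-B. CYC1, cytochrome c1, read 13.54 and 13.52 in the knockdown arrays and 13.35 and 13.51 in the controls, a difference of 0.0998. UQCR10, a small subunit, read 15.40 and 15.58 against 15.60 and 15.66 (-0.14), and UQCRFS1, the Rieske iron-sulfur protein, 15.34 and 15.52 against 15.49 and 15.39 (-0.013). None of these genes was called in the pooled comparison.

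Complex IV, cytochrome c oxidase, had 12 of 17 genes lower, also with NDUFA4 in the place of COX4NB, and medians of -0.096 with siRNA-A and 0.0011 with siRNA-B, which became -0.016 and -0.0036 after normalization, when 7 genes were lower and the pooled median turned from -0.077 to 0.022. COX5A, a nuclear subunit of the enzyme (chr15:75212636-75212695), read 14.61 with siRNA-A, 14.11 with siRNA-B, 14.76 with control siRNA-1 and 14.76 with control siRNA-2. Both knockdown arrays were below both controls, siRNA-A by -0.15 and siRNA-B by -0.65, but after quantile normalization the differences were -0.016 and -0.64 and the groups overlapped. The siRNA-B difference passed an unadjusted p under 0.005 in limma (adjusted p = 0.518), whereas the difference between the siRNAs did not pass (adjusted p = 0.546 in limma). After quantile normalization that difference was 0.62 and passed the unadjusted threshold (adjusted p = 0.408 in limma). With the mean pixel the differences were -0.17 and -0.71, and that of siRNA-B had an adjusted p = 0.00809 in limma, among 2 members, COX5A and COX6A1, at an adjusted p under 0.05 where 1.12% of all genes were called lower in this way; after quantile normalization of the mean pixel 0 members and 0 of all genes had such an adjusted p with siRNA-B. With the mean pixel, not normalized, the difference between the siRNAs in COX5A was 0.54 and passed an unadjusted p under 0.005 (adjusted p = 0.108 in limma), as 3.09% of all genes did. COX6A1 read 16.39 with siRNA-A and 15.72 with siRNA-B against 16.30 and 16.31, also across a sparse range. With the mean pixel COX6A1 read 16.11 and 15.80 against 16.32 and 16.34, which turned the siRNA-A difference from 0.087 to -0.22 and left that of siRNA-B at -0.53. COX7B, a small subunit, read 14.94 and 15.12 against 15.26 and 15.36 (-0.28, not called).

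COX4I2, the lung isoform, read between 5.61 and 5.86 and COX6A2, the muscle isoform, between 6.13 and 6.29, both well above background on all 4 arrays. COX7B2 and COX8C were well above background on 1 array each, with mean log2 intensities of 5.16 and 5.30. Just outside the weight threshold were COX7A1, at 4.95 to 5.52, and NDUFA4L2, at 5.13 to 5.43, both with a weight of 0 on every array and above background on no array. COX6B2, the testis isoform, read 13.26 and 13.40 against 13.26 and 13.22, and its second probe gave -0.17. The common isoforms COX4I1, COX6B1, COX7A2 and COX8A had differences of -0.077, -0.015, -0.16 and 0.048, and COX7A2L, related to COX7A2 by sequence, 0.049.

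Complex V had 18 of 18 genes lower (15 of 15 without ATP5S, ATP5SL and ATP5L2), with medians of -0.18 with siRNA-A and -0.064 with siRNA-B, and 11 genes lower with medians of -0.060 and 0.0021 after normalization. ATP5C1, the gamma subunit of the central stalk, read 12.46 and 12.74 in the knockdown arrays and 12.56 and 12.66 in the controls. ATP5H, the d subunit of the peripheral stalk, read 15.35 and 15.49 against 15.41 and 15.42. In both genes siRNA-A lay below and siRNA-B above both controls, and neither was called.

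Nearly all members were bright, and bright genes as a whole were shifted. Of the 85 genes 72 lay in the brightest of 10 bins of genes, where the median of all genes was -0.12 with siRNA-A and -0.017 with siRNA-B, against -0.20 and -0.029 for the members. After quantile normalization the medians of all genes in this bin were 0.0062 and 0.0088. No spot was saturated on any array. Of 16 genes with more than 1 probe well above background on all arrays, all probes had 1 sign in 11, and in 9 after normalization.

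**Figure D3:**
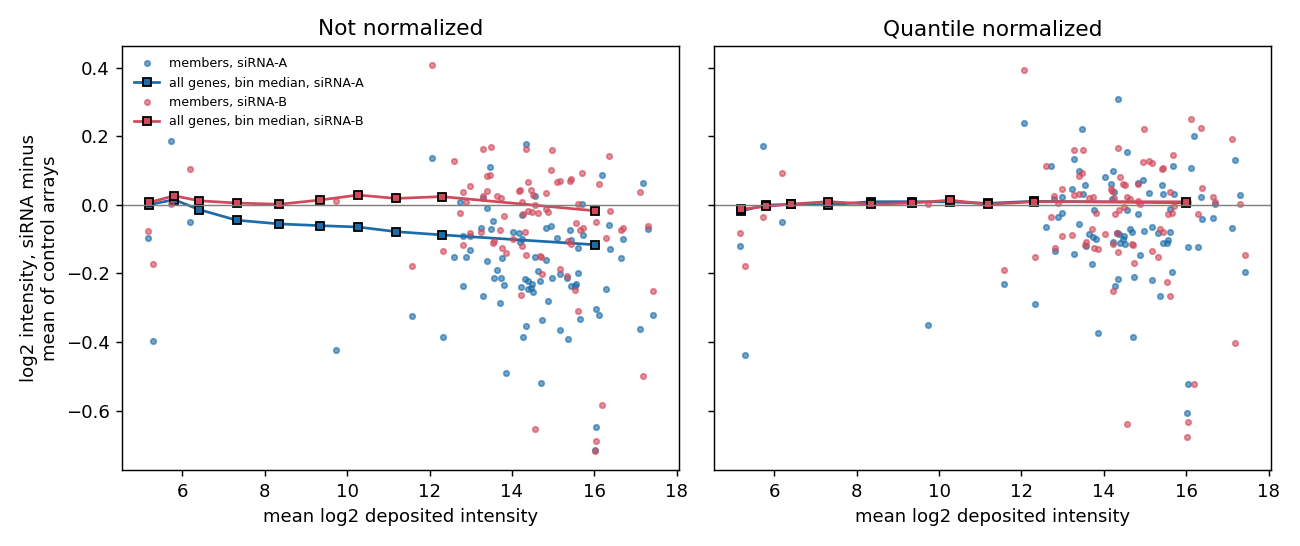
Difference in log2 intensity from the mean of the control arrays (y axis) against mean log2 intensity (x axis) for the 85 genes (points) and as medians of all genes in 10 bins of equal size (squares), not normalized on the left and quantile normalized on the right. With siRNA-A the line of all genes falls to -0.12 in the brightest bin, which holds 72 of the 85 genes, and lies at 0.0062 after normalization.

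Other genes around respiration gave mixed values. Of 29 measured assembly factors 17 were lower and 0 were called, with a median of -0.033 (12 lower and 0.0097 normalized). Of 14 electron and nucleotide carriers 9 were lower, with a median of -0.10 (0.015 normalized), and 0 were called; SLC25A3, the phosphate carrier, read 16.96 and 16.67 against 17.22 and 17.24, in and across a sparse range (-0.42, or -0.39 with the mean pixel). In a short list of genes that the name rule misses, NDUFAB1, USMG5, C14orf2 and CYCS, all 4 were lower (median -0.17, and -0.092 normalized). CYCS is also counted among the 14 carriers. Of 6 mitochondrially encoded subunits with a probe 4 were lower, with a median of -0.028 (2 lower and 0.027 normalized). The citric acid cycle had 11 of 16 genes lower (median -0.043; 7 lower and 0.0023 normalized), and mitochondrial biogenesis factors 7 of 14 (-0.0029; 6 lower and 0.024 normalized). Glycolysis genes were lower in 8 of 18 and higher in 10 (median 0.017), and lower in 3 after normalization (median 0.076). They held 1 gene called higher, HK1, a hexokinase, where 0.63% of all genes were called higher. HK1 read 9.60 and 9.64 against 8.95 and 9.20 (adjusted p = 0.253 in limma). After normalization 1 gene of the list was called. Ribosomal protein genes had medians of -0.098 (cytoplasmic, 73 of 86 lower) and -0.092 (mitochondrial, 64 of 77 lower), where 56.2% of all genes were lower. Called were 2 of the cytoplasmic genes, both lower, and 0 of the mitochondrial, where 0.702% of all genes were called lower. After normalization the medians were 0.012 and -0.049, with 40 and 54 genes lower and 0 called in either list. Of all genes 49% were then lower.

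**Figure D4:**
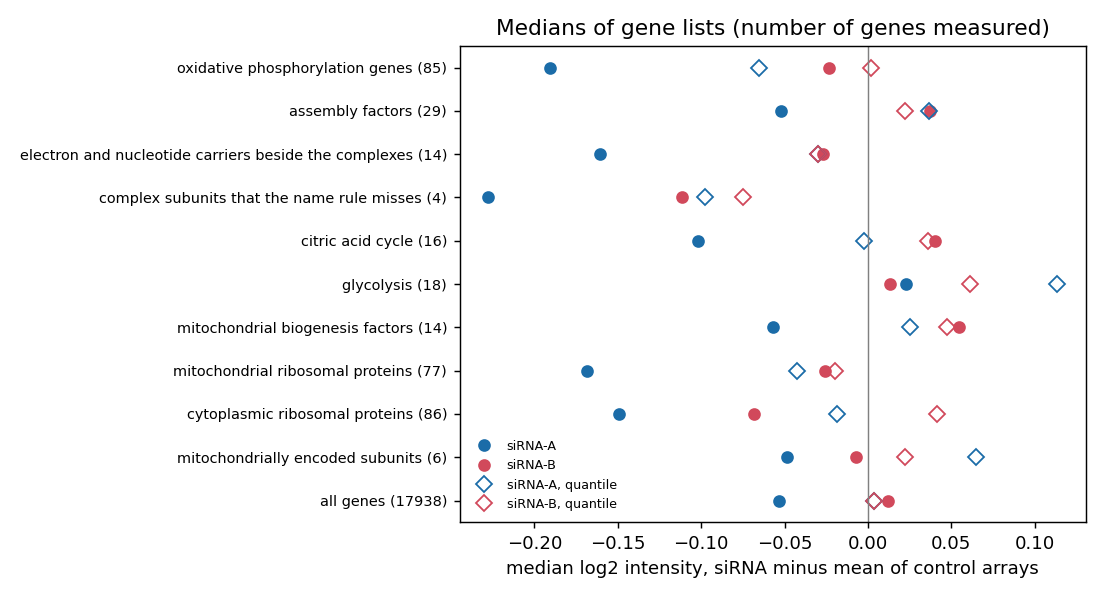
Median difference in log2 intensity from the mean of the control arrays (x axis) for each gene list (y axis, number of genes in brackets), with siRNA-A and siRNA-B, not normalized (filled) and quantile normalized (open). The oxidative phosphorylation genes lie at -0.19 and -0.023, and at -0.065 and 0.0017 after normalization.

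Promoter sequence was not used by the name rule. RefSeq promoters (GRCh38.p14, 300 bases) were matched by current or older symbol for 69 of the 85 genes and searched on both strands, and all 35116 promoters of the table, of coding and other genes, gave the background. GCGCA, any base and then GCGC, the letters of NRF1, was in 16 promoters (23.2%, against 5.78% of all). CCGGAAG, the letters of ETS factors, was in 20 (29%, against 10.3%), and AAGATGGCG, the letters of YY1, in 9 (13%, against 1.75%), so that most promoters lacked each motif, and no enrichment was tested. Shown are NDUFA3 and SDHD, a gene with a negative and one with a positive difference, at chr19:54102605-54102904 and chr11:112086623-112086922 on the plus strand, with matches in capitals.
NDUFA3: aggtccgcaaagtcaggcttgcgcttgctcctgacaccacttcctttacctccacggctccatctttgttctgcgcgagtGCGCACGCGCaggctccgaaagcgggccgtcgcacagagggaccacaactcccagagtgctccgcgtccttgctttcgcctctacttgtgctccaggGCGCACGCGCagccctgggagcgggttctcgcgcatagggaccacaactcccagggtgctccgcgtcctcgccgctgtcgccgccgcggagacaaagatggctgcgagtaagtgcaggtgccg
SDHD: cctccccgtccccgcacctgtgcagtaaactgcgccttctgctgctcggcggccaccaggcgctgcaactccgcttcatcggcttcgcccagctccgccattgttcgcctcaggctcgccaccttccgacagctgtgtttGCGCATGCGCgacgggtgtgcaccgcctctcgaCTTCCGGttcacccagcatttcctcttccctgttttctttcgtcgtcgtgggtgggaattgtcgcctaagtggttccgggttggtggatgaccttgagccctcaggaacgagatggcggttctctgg
NDUFA3 holds 2 matches of the NRF1 letters and SDHD 1 of these and 1 of the ETS letters. The promoters of NDUFA4, ATP5G2, COX5A and NDUFV1, not shown, hold no match of any of these motifs. The matches describe the sequence and are no evidence of binding.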

How the data were processed

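RNA was labelled with Cy3 from 0.1 microgram per array and hybridised to single-colour Agilent 4x44K v2 arrays. The authors extracted spots with Agilent Feature Extraction 10.5.1.1 and deposited an intensity per spot, without background subtraction or scaling of arrays, and per spot a weight, a score of quality whose derivation is not given in the sources used here. In 100% of spots this intensity was exactly equal to the median of the pixels. Without control spots there were 43118, and a weight above 0 on all arrays left 33323, which make up 26219 probes. Log2 intensities were averaged over identical spots and fitted, using these weights, by limma 3.58.1 in R 4.3.3. Each siRNA was compared with the controls, and with the other siRNA, in a fit with 3 groups, in which a lone array is assumed to vary like the controls. Genes were called at an unadjusted p under 0.005, the first criterion of the study; its further test over identical replicate probes was not applied, and the called members had 1 spot each. The adjusted p-values are Benjamini-Hochberg values over all probes. With 2 arrays against 2 the smallest two-sided exact permutation p is 0.333, so precision is limited by how few arrays there are. The pipeline was tested on simulated data.

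Members and lists were chosen with earlier results of these data known. Genes named are the called members, from complexes I, III, IV and V the 2 highest and 2 lowest differences among members that exceeded background on all arrays of a group, all genes of complex II, and isoform families; NDUFA12, HK1 and SLC25A3 were chosen after their values were seen. Some cell type markers are not reported here. Alternatives were quantile and cyclic loess normalization, the background-subtracted signal of the scanner tables (an intensity the authors deposited) scaled to its 75th percentile, normexp of the mean pixel (offset 50) followed by quantile normalization, no weights, a filter on dim probes, the mean of all probes of a gene, other membership of the complexes, an adjusted threshold, and omission of each array. The mean pixel intensity of the deposited scanner tables, with and without quantile normalization, was added after seeing the data, because the median pixel intensity has sparse ranges, and so was normexp of the median pixel.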

Additional observations from a re-analysis of the deposited data

Results flagged for a closer look

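On the deposited intensities 18 members had 1 siRNA array below and the other above both controls, a pattern found in 18.3% of all genes; siRNA-A was the lower in 16 of them (this direction in 13.9% of all genes, the other in 4.4%). After quantile normalization siRNA-A was the lower in 14 and the higher in 7 members, and in 9.57% and 9.53% of all genes, so that over all genes the lean was gone. Within the 18 members with opposite sides on the deposited intensities, siRNA-A minus siRNA-B differences ranged from -0.40 in COX7A2 to 0.67 in COX6A1. Among the genes named by rule they were -0.20 in NDUFB9, -0.18 in UQCRFS1, -0.28 in ATP5C1 and -0.14 in ATP5H, and 0.56 in UQCRH. None of these differences had an adjusted p under 0.05 in limma on the deposited intensities; that the effects oppose each other was itself not tested. For UQCRH, COX6A1, COX7A2 and ATP5A1 the median pixel values lay on both sides of a sparse range. In these genes both siRNA arrays were below both controls with the mean pixel. Their differences between the siRNAs were then 0.12, 0.31, -0.18 and -0.10. With the mean pixel 15 members had opposite sides, as did 19.5% of all genes.

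Medians of complexes II, III and IV had opposite signs with siRNA-A and siRNA-B, at 0.017 and -0.011, -0.10 and 0.0011, and -0.096 and 0.0011. The differences between these medians were not tested, and the values with siRNA-B lay nearer to 0 than the medians between the controls (-0.064, -0.028 and -0.054). After quantile normalization complexes III and IV had 1 sign with both siRNAs (0.031 and 0.036, and -0.016 and -0.0036). They also did with the mean pixel (-0.12 and -0.032, and -0.15 and -0.094). Complex II had opposite signs in both settings (0.13 and -0.0056, and 0.0084 and -0.0071).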

How the results depend on the processing

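In the pooled comparison 2 genes, NDUFA4 and ATP5G2, were called with quantile and cyclic loess normalization, without weights, with the filter on dim probes, with the mean of all probes of a gene and with normexp on the median pixel (-0.64 and -0.58), an alternative chosen after seeing the data. The number was 0 with normexp on the mean pixel, with the scaled background-subtracted signal, which is computed from the mean pixel, and with the mean pixel itself (with and without quantile normalization). There NDUFA4 was at -0.23 with normexp, -0.40 with the scaled signal and -0.34 and -0.23 with the mean pixel, and ATP5G2 at -0.012, -0.13, -0.14 and -0.012. With normexp and quantile normalization the calls thus depended on the pixel summary; why the pixel summaries differ was not tested. At an adjusted p under 0.05 the number was 0 on the deposited intensities, but with the filter on dim probes NDUFA4 passed (adjusted p = 0.035 in limma; ATP5G2 0.0527). With 1 array left out the number was 3 without siRNA-A (COX5A in addition), 2 without siRNA-B and 0 without either control, although the differences without control siRNA-1 and control siRNA-2 were -0.71 and -0.72 in NDUFA4 and -0.66 and -0.68 in ATP5G2. The median of all members was -0.19 to -0.023 with 1 array left out. The cause was not tested for any of the changes that follow.

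With quantile normalization, the median of complex II genes was at 0.064, the median of complex III genes at -0.0071, the median of complex IV genes at 0.022, the median of complex V genes at -0.020, UQCRFS1 at 0.069, ATP5C1 at 0.024, ATP5H at 0.081 and SDHB at 0.039. With cyclic loess normalization, the median of complex II genes was at 0.065, the median of complex III genes at -0.0055, the median of complex IV genes at 0.015, the median of complex V genes at -0.029, UQCRFS1 at 0.074, ATP5C1 at 0.034, ATP5H at 0.085 and SDHB at 0.041. With normexp background correction and quantile normalization, the median of complex II genes was at 0.064, the median of complex III genes at 0.0053, the median of complex V genes at -0.024, UQCRH at 0.048, UQCRFS1 at 0.067, COX4I2 at -0.045, ATP5C1 at 0.037, ATP5H at 0.072 and SDHB at 0.021. With mean pixel signal and quantile normalization, the median of complex II genes was at 0.064, the median of complex III genes at 0.0053, the median of complex IV genes at -0.0093, the median of complex V genes at -0.024, UQCRH at 0.048, UQCRFS1 at 0.067, COX4I2 at -0.0093, ATP5C1 at 0.037, ATP5H at 0.072 and SDHB at 0.023. With normexp background correction of the median pixel and quantile normalization, the median of complex II genes was at 0.063, the median of complex III genes at -0.0070, the median of complex IV genes at 0.0072, the median of complex V genes at -0.020, UQCRFS1 at 0.069, ATP5C1 at 0.024, ATP5H at 0.081 and SDHB at 0.037. With mean of all probes of a gene, UQCR10 was at 0.0072 and COX6B2 at -0.039. With background-subtracted signal scaled to its 75th percentile, UQCRFS1 was at 0.0040, COX4I2 at -0.082 and ATP5C1 at 0.049. With 1 array left out, values ranged for the median of oxidative phosphorylation genes from -0.19 to -0.023, the median of complex II genes from -0.062 to 0.068, the median of complex III genes from -0.12 to 0.0011, the median of complex IV genes from -0.096 to 0.0011, the median of complex V genes from -0.18 to -0.064, NDUFB9 from -0.058 to 0.14, UQCRH from -0.50 to 0.063, UQCRFS1 from -0.10 to 0.076, ATP5C1 from -0.15 to 0.13, ATP5H from -0.073 to 0.070, SDHA from -0.080 to 0.11 and SDHB from -0.044 to 0.029.

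Leaving out saturated probes changed nothing, because no spot was saturated, and was not run. No paired analysis was possible because the groups share no replicate numbers.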

Other observations

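Replicate spots show the noise of a single spot. In 6 of the genes the probe was printed on 10 spots, and the standard deviation over the spots of an array ranged from 0.14 in COX4NB to 0.37 in NDUFS5.

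The pixel summary mattered in bright spots over all genes. The standard deviation of the change in log2 fold change between median and mean pixel was 0.0145 in genes with a mean pixel value of 14 to 15 and 0.107 in genes at 16 to 17, where the largest was 0.53, that of ATP5G2. Of 239 genes called with the median pixel and 275 with the mean pixel, 224 were called with both.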
